A study of Mus musculus with 24 samples.

Results

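Genomic imprinting leaves a gene active on only 1 parental chromosome. A methylation mark set in the egg or the sperm silences the other copy, so that a paternally expressed gene (PEG) is transcribed from the chromosome that came from the father. Many PEGs promote growth before birth, and several are abundant in mesenchymal precursor cells and decline as these cells mature. The maternally expressed long noncoding RNA *H19* has been linked to the restraint of such genes. This account covers 10 PEGs that lie outside the *Igf2*, *Dlk1*-*Dio3* and *Snrpn* domains: *Mest*, *Nnat*, *Peg3*, *Peg10*, *Sgce*, *Plagl1*, *Impact*, *Zrsr1*, *Inpp5f* and *Slc38a4*. They were chosen by name, with earlier results of these data known, and all 10 were found among the 49452 genes of the expression table.

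RNA was sequenced from primary precursor cells of C57BL/6 mice, taken from the stromal-vascular fraction of interscapular brown adipose tissue (BAT) or of epididymal fat, a visceral white adipose tissue (vWAT). The cells received either a non-targeting siRNA (siCtrl) or an siRNA against *H19* (siH19) by nucleofection. The sample titles call the control siKO and the knockdown siH19_3, and the labelled siRNA field gives the first as a non-targeting control. Cells were harvested as confluent precursors before differentiation (d0) or at day 3 of differentiation (d3). This gave 8 groups of 3 libraries: BAT siCtrl d0, BAT siH19 d0, BAT siCtrl d3, BAT siH19 d3 and the same combinations for vWAT, 24 libraries in all. No group carried a transgene or a deleted allele. The donors were young adult males, and where single animals gave too little BAT the tissue was pooled. The depots also differed in digestion enzyme and in the media of differentiation. BAT cells were given indomethacin and triiodothyronine, and vWAT cells were given rosiglitazone. A depot difference at d3 cannot be told apart from these. At d0 it cannot be told apart from the digestion enzyme, while the media of differentiation had not yet been given. The sample descriptions also begin with MB-3 for BAT and MB-4 for vWAT, and what these prefixes stand for is not given in the sources used here. Nothing in the labels says that replicates came from separate cultures or animals, so p-values measure only the spread between these samples. Values are FPKM (fragments scaled to transcript length and to the library total), and the reads were not assigned to parental alleles. Imprinting itself was therefore not measured, only the total level of each gene.

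The siRNA target was checked first. *H19* (chr7:142575529-142578143, minus strand, an intergenic noncoding RNA gene in build GRCm38) was at 108, 160.4 and 122 FPKM in BAT siCtrl d0 and at 2.82, 5.20 and 5.05 in BAT siH19 d0. At d3 the BAT values were 99.7, 86.4 and 83.2 with siCtrl and 12.04, 12.1 and 16.9 with siH19. In vWAT the level was lower from the start, at 12.3, 11.3 and 11.6 in siCtrl d0 and 1.23, 0.630 and 1.76 in siH19 d0, then 8.67, 8.19 and 8.90 in siCtrl d3 and 0.327, 0.291 and 0.966 in siH19 d3. All 12 siH19 libraries lay below the siCtrl libraries of their depot and day, and the group means with siH19 were 3.35%, 15.3%, 10.3% and 6.15% of siCtrl for BAT d0, BAT d3, vWAT d0 and vWAT d3. The residual level in BAT siH19 rose from d0 to d3 (log2 difference 1.47, adjusted p = 0.000861). Column sums lay between 710794 and 772251 FPKM at d0 and between 800852.5 and 841456 at d3, without overlap. Pearson r between replicates over genes was 0.974 to 0.981. The number of fragments per library is unknown, so no counting error can be given. The most common ratio between low values of the same genes gave a relative depth, with BAT siCtrl d0 replicate 1 as the reference. It was 0.84 to 1.0 in the BAT libraries and 1.03 to 1.19 in those of vWAT, so the depots did not overlap. Larger ratios were left out beforehand, so a large difference in depth could not have shown. *H19* was called lower in all 4 comparisons (adjusted p = 0.00225, 0.00133, 0.00460 and 0.00965). The call was kept in all 12 alternative analyses in BAT at either day and in 11 of 12 in vWAT d0 (0.0526 with the replicate block). In vWAT d3, where *H19* passed the filter through its siCtrl level alone, it was kept in 5 of 12. There it was not tested without any 1 of the 3 siCtrl libraries, and lost with a pseudocount of 0.1 (0.0563), without the filter (0.0663), with the replicate block (0.144) and without siH19 replicate 1 (0.0561).

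The summed level of 6 brown adipocyte markers was 7.24 to 9.35 FPKM in the BAT siCtrl d0 libraries and 503 to 556 in those of d3, and *Ucp1*, which encodes the uncoupling protein of brown fat, was listed at 0 in all 12 vWAT libraries. That of 7 general adipocyte markers was 2659 to 2870.1 at d0 and 34069.9 to 35587 at d3 in BAT siCtrl, and 3503 to 3541 and 17578 to 18346 in vWAT siCtrl, so both depots held adipocyte RNA at d0 and more of it at d3. Mesothelial markers were at 80.1 to 93.5 FPKM in vWAT siCtrl d0 and at 5.14 to 5.91 in BAT siCtrl d0, and macrophage markers were at 273 to 304 and 128 to 159.9. In such bulk RNA, fewer cells of a type and less RNA per cell cannot be told apart.

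The 10 genes sit at separate places in the genome except for 1 pair. *Mest*, an alpha/beta-hydrolase gene of mesenchyme, spans chr6:30723547-30748465 on the plus strand and overlaps the end of *Copg2* on the opposite strand. *Nnat*, which encodes the small membrane proteolipid neuronatin, lies at chr2:157560078-157562522 on the plus strand, inside *Blcap*, which is transcribed the other way. *Peg10* (chr6:4747306-4760517, plus strand), a gene derived from a retrotransposon, and *Sgce* (chr6:4674350-4747207, minus strand), which encodes epsilon-sarcoglycan, start 99 bases apart and run in opposite directions. *Peg3* (chr7:6703892-6730431, minus strand) and *Plagl1* (chr10:13060504-13131694, plus strand) encode zinc finger proteins. *Zrsr1* (chr11:22973215-22976496, plus strand) is a splicing factor gene that arose as a retrocopy and lies inside *Commd1* on the opposite strand. *Inpp5f* (chr7:128611328-128696425, plus strand) encodes a phosphoinositide phosphatase, *Slc38a4* (chr15:96994823-97055956, minus strand) an amino acid transporter, and *Impact* a regulator of translation under amino acid shortage. These are coordinates of the expression table on GRCm38.

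Imprinted genes carry CpG-rich control regions, and the zinc finger protein ZFP57 keeps their methylation by binding the hexamer TGCCGC. RefSeq promoter windows of 300 bases (250 before and 50 after the annotated start, GRCm38.p6) were at hand for 7 of the 10 genes, not for *Peg10* and *Sgce*, and that of *Impact* was not analysed here. The hexamer was searched on both strands (GCGGCA is its reverse complement). It occurred in 11.6% of 32851 mouse promoter windows and in 4 of the 11 windows of the 7 genes, which belong to *Nnat* (1 of 1), *Mest* (2 of 3, these overlapping) and *Plagl1* (1 of 1). One window of each gene is shown 5′ to 3′ with the hexamer in capitals, because these place the letters that ZFP57 reads beside the starts of genes whose levels are followed here. The *Nnat* window (chr2:157559828-157560127, plus strand) held 17 CpG dinucleotides and 1 match, the *Mest* window of the downstream start (chr6:30737803-30738102, plus strand) 17 CpG and 2 matches, and the *Plagl1* window (chr10:13090582-13090881, plus strand) 26 CpG and 1 match, against a median of 7 CpG over all windows.
Nnat: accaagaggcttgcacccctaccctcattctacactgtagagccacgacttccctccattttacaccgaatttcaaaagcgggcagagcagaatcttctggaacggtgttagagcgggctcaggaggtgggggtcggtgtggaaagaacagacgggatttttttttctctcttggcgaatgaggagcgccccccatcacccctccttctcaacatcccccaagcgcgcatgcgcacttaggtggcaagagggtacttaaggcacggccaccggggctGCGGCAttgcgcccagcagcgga
Mest: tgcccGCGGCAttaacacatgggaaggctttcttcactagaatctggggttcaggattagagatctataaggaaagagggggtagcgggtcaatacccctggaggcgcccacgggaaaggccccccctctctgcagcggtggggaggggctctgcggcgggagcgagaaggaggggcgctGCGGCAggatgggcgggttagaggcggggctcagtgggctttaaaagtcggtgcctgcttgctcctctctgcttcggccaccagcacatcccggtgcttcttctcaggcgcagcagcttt
Plagl1: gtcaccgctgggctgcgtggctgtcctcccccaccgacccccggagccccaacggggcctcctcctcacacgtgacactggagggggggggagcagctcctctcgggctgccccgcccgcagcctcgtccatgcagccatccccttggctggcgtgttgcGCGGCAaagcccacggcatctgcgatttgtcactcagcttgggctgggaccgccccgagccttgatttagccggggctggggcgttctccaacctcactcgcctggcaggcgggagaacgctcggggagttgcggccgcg
A match of 6 letters is a description of the sequence, not a site of binding, and the windows of *Peg3*, *Inpp5f*, *Zrsr1* and *Slc38a4* do not hold these letters. Their windows held 13, 15, 10 and, in each window of *Slc38a4*, 5 CpG, and the upstream *Mest* window without the hexamer held 8. A count of 17 CpG exceeded that of 68.6% of all windows.

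FPKM are scaled to gene length, so levels can be ranked between genes. In BAT siCtrl d0 *Sgce* led with 55.4 ± 1.12 FPKM (mean ± SD, n = 3, as for all means given here), followed by *Nnat* with 28.4 ± 2.33, *Impact* with 25.7 ± 0.643, *Mest* with 18.8 ± 1.33 and *Peg10* with 12.1 ± 0.735. *Inpp5f* (7.65 ± 1.01), *Plagl1* (5.01 ± 1.496), *Peg3* (3.50 ± 0.366), *Zrsr1* (2.37 ± 0.243) and *Slc38a4* (1.87 ± 0.159) came after them. Of the neighbours in this order, *Nnat* and *Impact* met at 26.4 FPKM in single libraries and *Plagl1* and *Peg3* overlapped, and the others did not overlap. None of the 240 values was 0. *Slc38a4* was the lowest of the 10 in all 8 groups, and at d3 it was below 1 FPKM in every library.

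**Figure D1:**
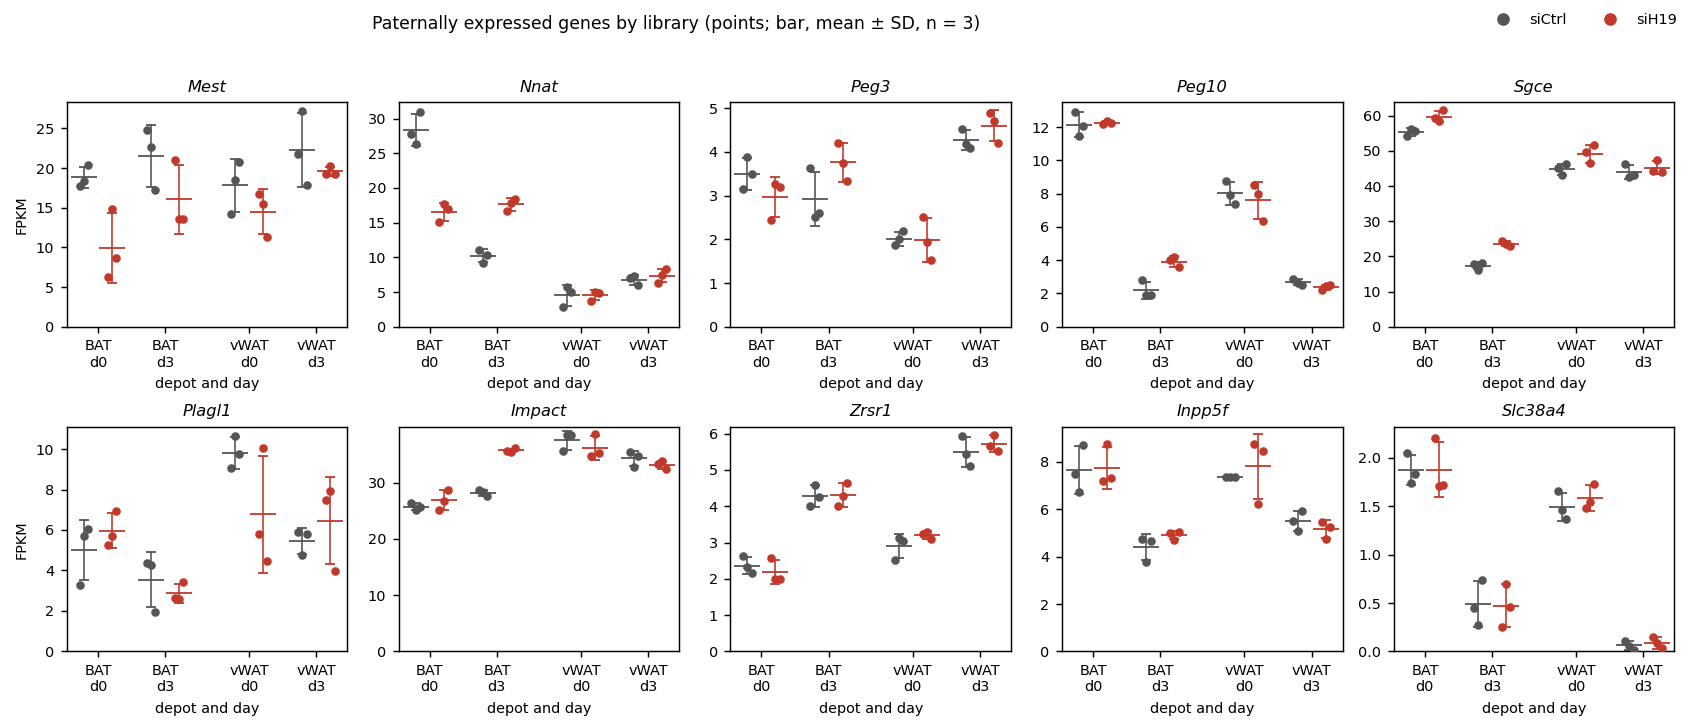
Level of the 10 paternally expressed genes in FPKM (vertical axes, each from 0) in the 24 libraries, by depot and day (horizontal axis), with siCtrl in grey and siH19 in red. Points are libraries and bars are mean ± SD of 3. In BAT at d3 the siH19 libraries of *Nnat*, *Peg10*, *Sgce* and *Impact* all lie above the siCtrl libraries. In BAT at d0 those of *Nnat* and *Mest* lie below and those of *Sgce* above.

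In BAT at d3, siH19 cells held more RNA of 3 PEGs than siCtrl cells. *Nnat* was at 11.1, 9.22 and 10.4 FPKM with siCtrl and at 16.7, 17.9 and 18.5 with siH19. *Peg10* was at 2.79, 1.90 and 1.91 with siCtrl and at 3.99, 4.20 and 3.57 with siH19. *Sgce* was at 17.9, 16.1 and 18.1 with siCtrl and at 24.4, 23.5 and 22.9 with siH19. None of these 3 genes had a siH19 library within the siCtrl range, the siH19 values being the higher ones, and the ratios of means were 1.72, 1.78 and 1.36. How many of all genes lay likewise without overlap was not counted. Non-overlap, here and elsewhere, describes the values and is no test. As a difference of log2(FPKM + 1), in which the added 1 shrinks changes at low levels, *Nnat* rose by 0.73 (SE 0.084, adjusted p = 0.00385), *Peg10* by 0.63 (SE 0.13, adjusted p = 0.0237) and *Sgce* by 0.42 (SE 0.065, adjusted p = 0.00880). Here and below, adjusted p comes from limma with Benjamini-Hochberg adjustment over all genes tested, and a gene was called at an adjusted p under 0.05 with a change of at least 1.3-fold. The 3 called PEGs were 3 of 9 tested, all higher, against 8.57% of 12500 genes called, 6.39% higher and 2.18% lower. Of the genes called in this comparison 74.6% were higher, and 60.1% after trimmed-mean scaling of the libraries.

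*Impact* moved the same way by less. It was at 28.6, 28.3 and 27.7 FPKM with siCtrl and at 35.6, 35.4 and 36.1 with siH19, and the 2 sets did not overlap. The log2 difference of 0.33 (SE 0.045) had an adjusted p of 0.00590 but fell short of 1.3-fold, so it was not called. *Mest* (log2 difference -0.42, adjusted p = 0.216), *Peg3* (0.29, adjusted p = 0.209), *Plagl1* (-0.18, adjusted p = 0.660), *Inpp5f* (0.14, adjusted p = 0.393) and *Zrsr1* (0.01, adjusted p = 0.962) did not pass the test, and their libraries overlapped between siRNAs. *Slc38a4* did not reach the filter of 1 FPKM in 3 libraries and was not tested. It was at 0.451, 0.268 and 0.741 FPKM with siCtrl and 0.256, 0.699 and 0.463 with siH19. The median log2 difference of the 9 PEGs tested was 0.29, beside 0.05 over all genes.

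The calls in BAT at d3 did not rest equally on the libraries. *Nnat* was called in all 12 alternative analyses, with log2 differences from 0.67 to 0.79. *Sgce* was called in 10 of 12 and lost its call under trimmed-mean scaling and without siCtrl replicate 2, in both cases because the difference of 0.37 fell short of 1.3-fold. *Peg10* was called in 7 of 12 and lost its call without siCtrl replicate 2 (adjusted p = 0.0838), siCtrl replicate 3 (0.0719), siH19 replicate 1 (0.0698) or siH19 replicate 2 (0.0717), and without the filter on low values (0.0757).

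Other gene groups moved in the same cells. Of the precursor markers, 3 of 4 tested were higher with siH19 in BAT at d3 (*Pdgfra* by 0.42, *Ly6a* by 0.85 and *Gata2* by 0.80 on the log2 scale), and the sum of the 6 listed was 482 to 514 FPKM with siH19 against 269.8 to 304 with siCtrl. All 3 smooth muscle markers tested, *Acta2*, *Tagln* and *Cnn1*, were higher, and the sum of the 4 listed was 1029 to 1241 against 431 to 599. Of the 6 brown adipocyte markers, *Ucp1*, *Cidea*, *Ppargc1a* and *Elovl3* were lower (sum 299 to 354 against 503 to 556), and of 4 macrophage markers tested *Adgre1* and *Lyz2* were lower (sum of the 5 listed 78.8 to 89.8 against 125 to 157). *Adgre1* was below 1 FPKM in all siH19 libraries of BAT d3. It passed the filter through siCtrl alone and had to lie lower. Among the 7 general adipocyte markers limma called 0, but 6 had an unadjusted p under 0.05 and 6 lay below 0 (median -0.13), and their sum was 31012 to 33300.0 with siH19 against 34069.9 to 35587 with siCtrl, without overlap. The part of these shifts in the PEG differences was not tested.

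At d0 the picture in BAT was another one. *Nnat* was at 27.8, 26.4 and 30.9 FPKM with siCtrl and at 15.1, 17.6 and 16.9 with siH19, so that all siH19 libraries lay below all siCtrl libraries. It was the only PEG called, lower by siH19 (log2 difference -0.74, SE 0.083, adjusted p = 0.0210). This made 1 of 10 PEGs, where 1.94% of 12651 genes were called, 0.617% higher and 1.32% lower. *Mest* was at 17.8, 18.4 and 20.3 with siCtrl and at 6.23, 14.8 and 8.65 with siH19. These libraries did not overlap either, and the mean with siH19 was 52.6% of siCtrl, but the siH19 libraries were spread widely and the log2 difference of -0.94 (SE 0.27) was not called (adjusted p = 0.123). *Sgce* was at 54.1, 56.3 and 55.6 with siCtrl and at 59.3, 58.5 and 61.5 with siH19, a small difference without overlap that was not called (0.11, adjusted p = 0.214). Together with *Sgce*, the 8 PEGs other than *Nnat* and *Mest* had log2 differences between -0.18 (*Peg3*) and 0.24 (*Plagl1*), and all had an adjusted p above 0.2.

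Both d0 results changed their call in some of the alternative analyses. Over the whole table, leaving out 1 library cut the called genes from 245 to between 4 and 74. *Nnat* was called in 6 of 12 alternative analyses, with log2 differences from -0.79 to -0.68. Its adjusted p rose to 0.0736, 0.0655, 0.0698 and 0.0700 without siCtrl replicate 1, 2 or 3 or siH19 replicate 3, to 0.0570 without the filter on low values and to 0.0819 with the replicate number as a block. *Mest* became called without siH19 replicate 2, its highest siH19 library (log2 difference -1.25, adjusted p = 0.0405), and in a joint fit on all 24 libraries (adjusted p = 0.0181). In the same comparison 6 of 7 adipocyte markers were lower with siH19, with a summed level of 1227 to 1682 FPKM against 2659 to 2870.1 with siCtrl, and their part in the PEG differences was not tested.

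In vWAT siH19 moved no PEG past the test at either day. With limma 0 of 10 PEGs were called at d0 and 0 of 9 at d3, and 0 had an unadjusted p under 0.05 at either day. Across all genes 1.53% of 13063 were called at d0 and 0.0305% of 13097 at d3, so that at d3 hardly any gene was called at all. At d0 all 7 adipocyte markers were lower with siH19 (sum 1962 to 2238 against 3503 to 3541 FPKM). *Nnat* was at 7.08, 7.28 and 5.95 FPKM with siCtrl d3 and at 6.35, 7.40 and 8.26 with siH19 d3 (log2 difference 0.10, 95% interval -0.17 to 0.37). *Peg10* was at 2.88, 2.65 and 2.52 and 2.19, 2.45 and 2.48 (-0.13, 95% interval -0.33 to 0.08). *Sgce* was at 46.2, 42.6 and 43.1 and 44.3, 47.4 and 44.1 (0.04, 95% interval -0.08 to 0.16). The vWAT siH19 d3 libraries of *Peg10* lay just below those of siCtrl, and those of *Nnat* and *Sgce* overlapped. At d0 *Sgce* lay without overlap a little higher with siH19, as in BAT (0.13, adjusted p = 0.288). The largest d0 difference was that of *Plagl1*, at 9.06, 10.6 and 9.74 with siCtrl and 5.79, 10.04 and 4.49 with siH19 (-0.54, adjusted p = 0.316), where siH19 replicate 2 lay among the siCtrl libraries.

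**Figure D2:**
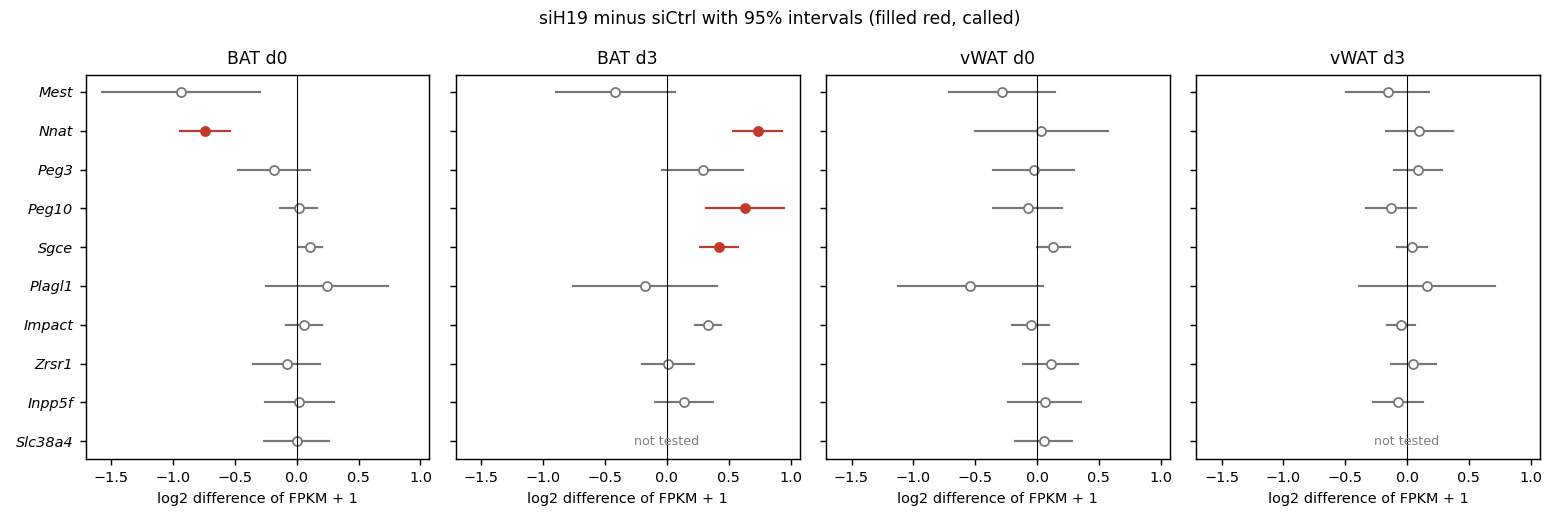
Difference of siH19 minus siCtrl in log2(FPKM + 1) (horizontal axis, with 95% interval) for the 10 genes in BAT d0, BAT d3, vWAT d0 and vWAT d3. Filled red points were called, and *Nnat* is called below 0 in BAT d0 and above 0 in BAT d3, with *Peg10* and *Sgce*, while no point is filled in vWAT.

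The difference between depots was itself tested at d3. The siH19 effect was larger in BAT than in vWAT by 0.76 for *Peg10* (SE 0.15, adjusted p = 0.0128), by 0.63 for *Nnat* (SE 0.14, adjusted p = 0.0209), by 0.38 for *Sgce* (SE 0.078, adjusted p = 0.0129) and by 0.38 for *Impact* (SE 0.055, adjusted p = 0.00299). For such interactions the adjusted p alone decided the call, and 4 of 9 PEGs were called, all with the larger value in BAT. Over all genes 10.5% were called, 7.02% in this direction and 3.52% in the other. Of these called genes 66.6% had the larger value in BAT, and 45.5% after trimmed-mean scaling, under which all 4 PEGs kept their call. *Peg10*, *Sgce* and *Impact* were called in all 17 alternative analyses and *Nnat* in 14, with losses in the joint fit (adjusted p = 0.0712) and without BAT siCtrl replicate 2 (0.0530) or vWAT siCtrl replicate 2 (0.0502). In the same test 4 of 6 precursor and 2 of 4 smooth muscle markers were called with the larger value in BAT, and 4 of 6 brown adipocyte, 4 of 7 adipocyte and 3 of 4 macrophage markers with the smaller, and their part in the PEG differences was not tested.

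The difference between days in BAT was tested in the same way. For *Nnat* the siH19 effect was 1.48 higher at d3 than at d0 (SE 0.12, adjusted p = 0.000352), being below 0 at d0 and above 0 at d3, and it was called in all 17 alternative analyses. *Peg10* (0.62, adjusted p = 0.0260), *Sgce* (0.31, adjusted p = 0.0209) and *Impact* (0.27, adjusted p = 0.0343) also had a higher effect at d3. These were 4 of 10 PEGs, all in 1 direction, where 9.06% of all genes were called, 7.79% higher at d3 and 1.27% lower. The share of called genes that were higher at d3 was 86.0%, and 63.3% after trimmed-mean scaling. Under that scaling *Peg10*, *Sgce* and *Impact* lost their calls (adjusted p = 0.0567, 0.0909 and 0.178), and over all 17 alternatives *Sgce* was called in 15, *Peg10* in 6 and *Impact* in 4. *Sgce* lost its call also without BAT siCtrl d0 replicate 2 (0.0530). *Peg10* lost it without the filter and without any 1 of 9 of the 12 libraries (adjusted p = 0.0518 to 0.0641), and *Impact* with the replicate block and without any 1 of 11 (0.0536 to 0.0776). In the same test 6 of 7 adipocyte, 3 of 6 precursor and 3 of 4 smooth muscle markers were called higher at d3 and 3 of 6 brown adipocyte markers lower, and their part was not tested.

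From d0 to d3 the PEGs did not move as 1 group. In BAT siCtrl 6 of 10 were called, *Nnat*, *Peg10*, *Sgce*, *Inpp5f* and *Slc38a4* lower and *Zrsr1* higher. Over all genes 65.2% were called, 29.9% higher and 35.3% lower, so most genes changed in these 3 days and a called PEG is no exception. In vWAT siCtrl 5 of 10 were called, *Peg10*, *Plagl1* and *Slc38a4* lower and *Peg3* and *Zrsr1* higher, beside 50.3% of all genes, 26.3% higher and 23.9% lower. With siH19 the counts were 7 of 10 in BAT, 5 lower and 2 higher (all genes 60.6%, 30.8% higher and 29.8% lower), and 7 of 10 in vWAT, 3 lower and 4 higher (all genes 52.7%, 28.2% higher and 24.5% lower). In all 4 comparisons *Slc38a4* passed the filter through its d0 level alone and had to differ. Without it the counts were 5 of 9 in BAT siCtrl, 4 of 9 in vWAT siCtrl, 6 of 9 in BAT siH19 and 6 of 9 in vWAT siH19. The day comparisons share their libraries with the siRNA comparisons above, and the siCtrl ones also with the comparisons of depots.

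Cell type markers moved over the same days. In BAT siCtrl all 6 precursor markers (median log2 difference -1.72) and all 4 smooth muscle markers (-2.68) were lower at d3 and all 7 adipocyte markers (3.09) were higher. Of these, *Cd34*, *Dpp4* and *Myh11* were below 1 FPKM in all BAT siCtrl d3 libraries. They passed the filter through d0 alone and had to lie lower at d3. In vWAT siCtrl 4 of 6 precursor markers were lower and 1 was higher (-0.50), 2 of 4 smooth muscle markers were lower and 1 was higher (-0.38), and all 7 adipocyte markers were higher (1.90). The smooth muscle marker that was higher, *Myh11*, was below 1 FPKM in all vWAT siCtrl d0 libraries. It passed the filter through d3 alone. In the test of depot by day, precursor markers (6 of 6, median -1.33) and smooth muscle markers (4 of 4, -2.21) had the lower change in BAT and adipocyte markers (7 of 7, 1.26) the higher one. The part of these markers in the PEG changes was not tested.

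*Peg10* fell in every depot and with either siRNA. It went from 12.9, 11.5 and 12.1 FPKM at d0 to 2.79, 1.90 and 1.91 at d3 in BAT siCtrl and from 12.2, 12.3 and 12.3 to 3.99, 4.20 and 3.57 in BAT siH19. In vWAT it went from 8.75, 7.91 and 7.39 to 2.88, 2.65 and 2.52 with siCtrl and from 8.49, 7.96 and 6.34 to 2.19, 2.45 and 2.48 with siH19. All d3 libraries lay below all d0 libraries of their depot. The d3 mean was 18.1% of d0 in BAT siCtrl, 31.9% in BAT siH19, 33.5% in vWAT siCtrl and 31.2% in vWAT siH19, with log2 differences of -2.05, -1.43, -1.29 and -1.34 and every adjusted p at or below 6.81e-05.

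*Sgce*, which starts 99 bases from *Peg10*, fell in BAT and was not called in vWAT. It went from 54.1, 56.3 and 55.6 FPKM at d0 to 17.9, 16.1 and 18.1 at d3 in BAT siCtrl (log2 difference -1.62, adjusted p = 5.75e-07) and from 59.3, 58.5 and 61.5 to 24.4, 23.5 and 22.9 in BAT siH19. In vWAT siCtrl it was at 45.2, 43.0 and 46.1 at d0 and at 46.2, 42.6 and 43.1 at d3 (log2 difference -0.03, 95% interval -0.15 to 0.10). The BAT libraries of the 2 days were far apart, and those of vWAT overlapped. The change from d0 to d3 differed between BAT and vWAT by -1.59 for *Sgce* (SE 0.073, adjusted p = 3.04e-08) and by -0.76 for *Peg10* (SE 0.15, adjusted p = 0.00166), both lower in BAT.

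*Nnat* fell in BAT siCtrl and in no other setting. There it went from 28.4 ± 2.33 to 10.2 ± 0.957 FPKM (36.1% of d0, log2 difference -1.39, adjusted p = 1.06e-05). In BAT siH19 it was at 16.6 ± 1.297 at d0 and at 17.7 ± 0.922 at d3 (log2 difference 0.09, 95% interval -0.10 to 0.28), so that the libraries of the 2 days overlapped. In vWAT it was higher at d3, by 0.53 with siCtrl (not called, adjusted p = 0.0670, but called without vWAT siCtrl d0 replicate 2 at 0.0336 and in the joint fit at 0.00606) and by 0.59 with siH19 (adjusted p = 0.00692). The test of depot by day in siCtrl gave -1.91 (SE 0.25, adjusted p = 8.53e-05), with the lower change in BAT.

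The 2 zinc finger genes differed. *Peg3* rose in vWAT, from 1.86, 2.01 and 2.18 FPKM at d0 to 4.53, 4.18 and 4.09 at d3 with siCtrl (log2 difference 0.81, adjusted p = 0.000169) and by 0.92 with siH19 (adjusted p = 0.000953). In BAT siCtrl it was at 3.14, 3.87 and 3.48 and 3.62, 2.51 and 2.61, which overlapped and were not called (adjusted p = 0.189). The depot by day test gave -1.01 for *Peg3* (SE 0.16, adjusted p = 0.000251). *Plagl1*, which encodes a transcription factor that arrests the cell cycle, fell in vWAT siCtrl from 9.06, 10.6 and 9.74 to 5.90, 4.74 and 5.79 (log2 difference -0.74, adjusted p = 0.000686) and in BAT siH19 from 5.25, 5.72 and 6.95 to 2.62, 2.61 and 3.42 (log2 difference -0.84, adjusted p = 0.00104). In BAT siCtrl its ranges of 3.29 to 6.03 FPKM at d0 and 1.97 to 4.38 at d3 overlapped, and it was not called there (log2 difference -0.42, adjusted p = 0.226).

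Among the metabolic and RNA-processing genes, *Zrsr1* rose and *Slc38a4* fell in all 4 settings. *Zrsr1* went from 2.15 to 2.63 to 4.01 to 4.59 FPKM in BAT siCtrl and from 2.53 to 3.12 to 5.12 to 5.94 in vWAT siCtrl, with d3 means between 1.79 and 1.97 times those of d0 over the 4 settings and log2 differences from 0.65 to 0.74. *Slc38a4* went from 1.74 to 2.05 to 0.268 to 0.741 FPKM in BAT siCtrl and from 1.36 to 1.65 to 0.0198 to 0.113 in vWAT siCtrl. *Inpp5f* was lower at d3 in all 4 settings and called in 3, with log2 differences of -0.68 in BAT siCtrl, -0.56 in BAT siH19 and -0.51 in vWAT siH19, while vWAT siCtrl (-0.37, adjusted p = 0.00452) fell just short of 1.3-fold. That value was called with a pseudocount of 0.1 (-0.42), under trimmed-mean scaling (-0.38), with no minimum fold and without vWAT siCtrl d3 replicate 3 (-0.42). The d0 and d3 libraries of *Zrsr1* and *Inpp5f* did not overlap in any of the 4 settings. Those of *Slc38a4* did not either, but this gene passed the filter through its d0 level alone, so its fall was fixed beforehand. How many of all genes lay likewise without overlap was not counted.

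*Impact* and *Mest* were called in 1 setting each. *Impact* was higher at d3 in BAT siH19 (log2 difference 0.40, adjusted p = 0.000926) and lost this call without BAT siH19 d0 replicate 1 (0.35, under 1.3-fold). In BAT siCtrl it differed by 0.13 and in vWAT siCtrl by -0.12, neither called, and the test of depot by day gave 0.25 (SE 0.064, adjusted p = 0.00713). *Mest* was at 17.8, 18.4 and 20.3 FPKM at d0 and 24.9, 22.6 and 17.2 at d3 in BAT siCtrl and at 14.2, 18.4 and 20.8 and 21.8, 27.2 and 17.9 in vWAT siCtrl. Both pairs overlapped. In BAT siH19 *Mest* was at 6.23, 14.8 and 8.65 and 21.1, 13.6 and 13.5 (0.69, adjusted p = 0.0804), which was not called, but was without siH19 d0 replicate 2 (1.00, adjusted p = 0.0100) and in the joint fit on all 24 libraries (adjusted p = 0.0140). In fits on the libraries of each comparison, vWAT siH19 was called (0.43, adjusted p = 0.0274), a call that held in 6 of 12 alternative analyses. It was lost without any of the 3 vWAT siH19 d3 libraries (adjusted p = 0.0587 to 0.0729), without vWAT siH19 d0 replicate 3 (log2 difference 0.27), without the filter (0.0638) and in the joint fit (0.125). In the depot by day test 5 of 10 PEGs were called, *Nnat*, *Peg3*, *Peg10* and *Sgce* lower in BAT and *Impact* higher, beside 53.0% of all genes, 24.9% higher and 28.1% lower.

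**Figure D3:**
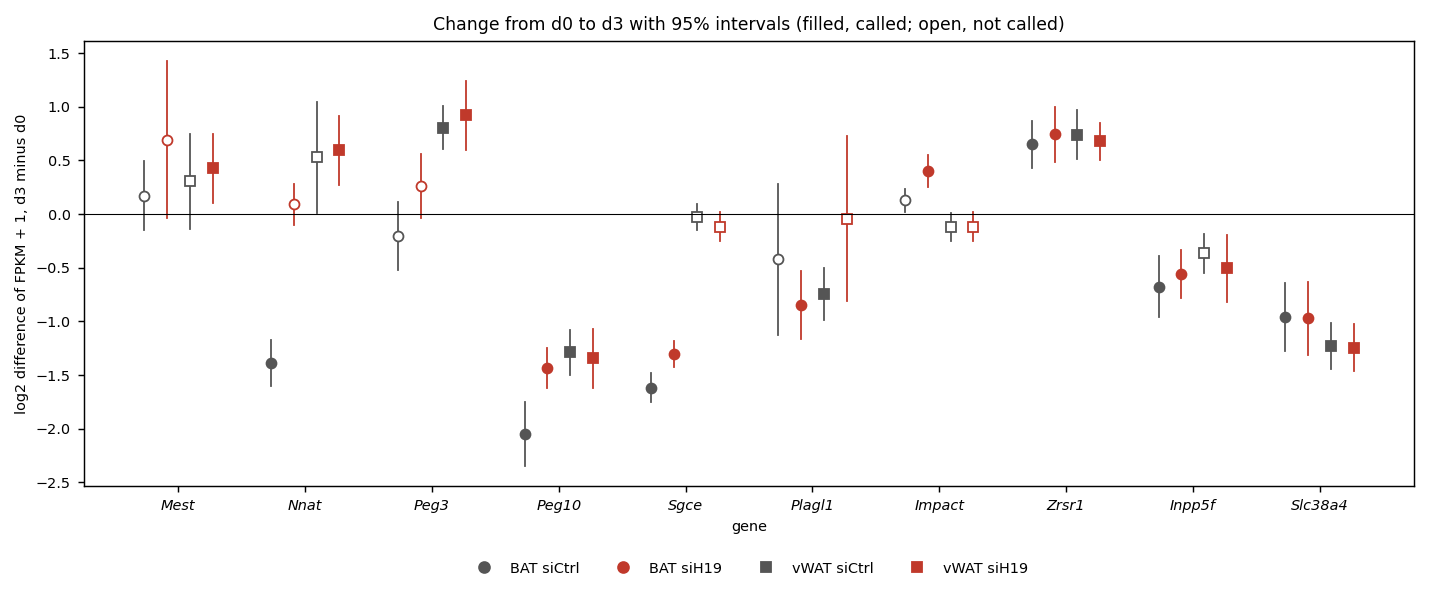
Change from d0 to d3 in log2(FPKM + 1) (vertical axis, with 95% interval) of the 10 genes (horizontal axis) for BAT (circles) and vWAT (squares) with siCtrl (grey) or siH19 (red). Filled symbols were called. *Peg10* and *Slc38a4* lie below 0 and *Zrsr1* above 0 in all 4 settings, *Sgce* lies near 0 in vWAT, and *Nnat* lies far below 0 in BAT siCtrl alone. *Slc38a4* passed the filter through its d0 level alone and had to lie below 0.

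Between the depots at d0 *Nnat* had the largest log2 difference of the 10 PEGs, and at d3 *Sgce* had the largest of the 9 tested. In siCtrl at d0 *Nnat* was at 28.4 ± 2.33 FPKM in BAT and at 4.52 ± 1.51 in vWAT, 6.27 times as high in BAT (log2 difference 2.45, SE 0.21, adjusted p = 0.000154). At d3 the ratio of *Nnat* was 1.51 (log2 difference 0.53, adjusted p = 0.00343). *Peg3* (0.58) and *Peg10* (0.54) were also higher in BAT at d0, and *Plagl1* (-0.88) and *Impact* (-0.52) were lower, which made 3 PEGs higher and 2 lower of 10. *Sgce* (0.30) was under 1.3-fold and was called under trimmed-mean scaling (0.42). Over all genes 31.2% were called at d0, 10.2% higher and 21.0% lower in BAT. At d3 *Nnat* was higher and *Peg3* (-0.44, adjusted p = 0.0185) and *Sgce* (-1.29, adjusted p = 5.93e-06) were lower in BAT, 3 of 9 PEGs, beside 48.6% of all genes, 16.5% higher and 32.1% lower. *Peg3* thus stood above vWAT at d0 and below it at d3, although its d3 call was lost under trimmed-mean scaling (adjusted p = 0.0516), without the filter (0.0510) and without BAT siCtrl d3 replicate 2 (0.0567), replicate 3 (0.0567) or vWAT siCtrl d3 replicate 1 (0.0604).

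*Slc38a4* was not tested at d3, where it was at 0.268 to 0.741 FPKM in BAT and at 0.0198 to 0.113 in vWAT, low values that did not overlap.

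Trimmed-mean scaling raised the median difference of all genes by 0.11 at d0 and 0.12 at d3, and moved the share of called genes that were higher in BAT from 32.8% to 47.9% at d0 and from 33.9% to 45.3% at d3. Under this scaling no PEG changed direction in a depot comparison in which it was called. Mesothelial markers were higher in vWAT at both days (d3 33.4 to 38.0 against 1.24 to 3.36 FPKM in siCtrl), as were macrophage markers (d3 458 to 500.4 against 125 to 157), and at d3 all 6 precursor markers (median -1.84) and all 4 smooth muscle markers (-1.14). Of the last 2 lists, *Cd34*, *Dpp4* and *Myh11* were below 1 FPKM in all BAT siCtrl d3 libraries. They passed the filter through vWAT alone and had to lie higher there. All 7 adipocyte markers were higher in BAT at d3 (0.92). At d0 3 of 4 smooth muscle markers were called higher in BAT, and of 3 myogenic markers tested 2 were higher and 1 was lower. *Myh11* and the 2 higher myogenic markers, *Myod1* and *Myog*, were below 1 FPKM in all vWAT siCtrl d0 libraries. They passed the filter through BAT alone and had to lie higher there. Of 6 precursor markers 2 were higher and 4 lower in BAT at d0, and of 7 adipocyte markers 0 were higher and 3 lower. The part of these markers in the depot differences of the PEGs was not tested.

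The neighbours of the PEGs were examined next. Of 25 genes that neighbour, host or share an imprinted domain with a PEG, limma called 0 of 16, 0 of 15, 0 of 16 and 0 of 16 tested in the siH19 comparisons of BAT d0, BAT d3, vWAT d0 and vWAT d3 (3, 2, 1 and 2 at an unadjusted p under 0.05). Over all genes 1.94%, 8.57%, 1.53% and 0.0305% were called, shares at which few or no calls fall in lists of this size. *Blcap*, which encodes an apoptosis-inducing protein and surrounds *Nnat*, was at 55.1, 53.7 and 54.2 FPKM in BAT siCtrl d3 and at 55.7, 54.0 and 55.7 in BAT siH19 d3 (log2 difference 0.02, SE 0.04, adjusted p = 0.760), where *Nnat* differed by 0.73. The *Blcap* libraries of the 2 siRNAs overlapped. From d0 to d3 in BAT siCtrl *Blcap* rose by 0.80 (adjusted p = 8.75e-06) while *Nnat* fell by 1.39.

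*Casd1*, the neighbour of *Sgce* on the far side from *Peg10*, was at 9.07 ± 1.11 FPKM in BAT siCtrl d3 and at 8.39 ± 2.11 in BAT siH19 d3 (-0.12, adjusted p = 0.680). *Tfpi2*, a protease inhibitor gene of the same domain, was at 4.75, 6.31 and 7.23 and 7.20, 10.3 and 10.7 (0.55, adjusted p = 0.0947), which overlapped and was not called. *Copg2*, whose end overlaps *Mest*, rose from d0 to d3 by 0.92 in BAT siCtrl and by 0.87 in vWAT siCtrl (adjusted p = 0.000161 and 1.94e-05), where *Mest* was not called. *Commd1*, the host of *Zrsr1*, stayed between 89.7 and 104 FPKM over the 8 group means and was not called in any siRNA or day comparison. *Usp29*, which starts 147 bases from *Peg3* and runs away from it, was below 1 FPKM in every library.

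Shared sequence bears on how well these neighbours are separated. Of the 75-base stretches of the longest coding transcript of each PEG, 0% recurred in the same sense in transcripts of another gene, including those of the *Zrsr1* relative on the X chromosome. In the opposite sense 32.3% of those of *Mest* lay within *Copg2* transcripts, 6.04% of those of *Zrsr1* within *Commd1*, and 1.14% of those of *Nnat* within a miRNA gene model. Whether reads were counted by strand is not given in the sources used here. Reads of *Mest* and *Copg2*, and those of *Zrsr1* and *Commd1*, may therefore not be told apart in their shared stretches. *Commd1* stood far above *Zrsr1* in FPKM.

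**Figure D4:**
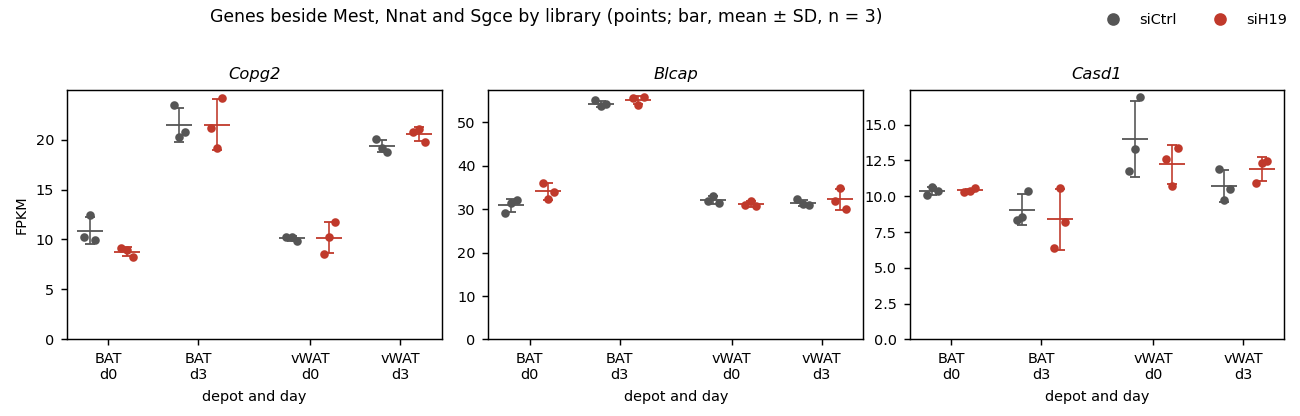
Level in FPKM (vertical axes, each from 0) of *Copg2*, *Blcap* and *Casd1*, neighbours of *Mest*, *Nnat* and *Sgce*, by depot and day, with siCtrl in grey and siH19 in red (points, libraries; bars, mean ± SD of 3). The siRNAs overlap in BAT at d3 for all 3 genes, and *Copg2* is higher at d3 in both depots, *Blcap* in BAT.

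Imprinted genes outside the 10 moved partly alike. Of 10 growth-related imprinted genes often described as a network with *Plagl1*, 3 were called in BAT d3, all higher with siH19: *Dlk1*, which encodes the preadipocyte protein delta-like 1 (0.66, adjusted p = 0.0429), *Meg3*, a maternally expressed noncoding RNA (0.56, adjusted p = 0.0217), and *Gatm*, an enzyme gene of creatine synthesis (0.43, adjusted p = 0.0493). *Meg3* was at 14.0, 12.6 and 17.4 FPKM with siCtrl and at 21.3, 21.6 and 22.8 with siH19. Over all genes 8.57% were called there, 6.39% as higher and 2.18% as lower. The median of the 10 was 0.29, beside 0.05 over all genes. In BAT d0, vWAT d0 and vWAT d3 limma called 0 of these 10 (1, 2 and 1 at an unadjusted p under 0.05).

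Of 10 genes whose proteins read or keep imprints limma called 0 in each of the 4 siH19 comparisons (1, 3, 4 and 5 at an unadjusted p under 0.05 in BAT d0, BAT d3, vWAT d0 and vWAT d3), beside 1.94%, 8.57%, 1.53% and 0.0305% of all genes called. *Zfp57*, whose protein reads the hexamer marked in the promoters above and which was singled out after its values were seen, was at 18.0, 11.6 and 14.7 FPKM in BAT siCtrl d0 and at 1.29, 1.11 and 2.41 in BAT siCtrl d3. In vWAT siCtrl it was at 25.5, 28.0 and 29.2 and 7.73, 8.21 and 6.55. It fell in both depots (log2 difference -2.61 and -1.75, adjusted p = 4.70e-05 and 8.73e-06), and in BAT d3 it was at 2.75, 1.65 and 1.71 with siH19 (log2 difference 0.24, adjusted p = 0.527). Of the 3 genes with the hexamer in their window, over the same days *Nnat* fell in BAT siCtrl, *Plagl1* in vWAT siCtrl, and *Mest* was called in neither.

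Over the 24 libraries the genes whose log2(FPKM + 1) ran closest to each PEG were named among 13455 genes with a mean of at least 1 FPKM. These correlations are descriptions, since libraries of a group share depot, day and siRNA. *Sgce* ran closest to *Sept11* (r = 0.993) and *Ncstn* (0.990), *Peg10* to *Sdc3* (0.989) and *Aebp2* (0.989), and *Zrsr1* to *Dmrt2* (0.978) and *Cyp2d22* (0.970). *Nnat* ran closest to *Chst13* (0.942) and *Itm2a* (0.938), *Inpp5f* to *Fam13b* (0.931) and *Arf4* (0.931), and *Impact* to *Trim25* (0.923) and *Slfn2* (0.885). For *Peg3* they were *Tmem19* (0.897) and *Draxin* (0.886), for *Plagl1* *Suv39h1* (0.846) and *Lbr* (0.841), and for *Mest* *Dennd6a* (0.791) and *Tcea2* (0.755), so that *Mest* had the loosest partners. Among the PEGs themselves *Peg10* ran most closely with *Inpp5f* (r = 0.855) and most opposed to *Zrsr1* (-0.930), while the divergent pair *Peg10* and *Sgce* had an r of 0.661.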

How the data were processed

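RNA of 24 samples was sequenced after poly-A enrichment. The methods describe single-end reads of 75 nucleotides, while the labels describe paired-end reads. The authors processed the reads in a workflow that named TopHat2 and Cufflinks (versions 2.0.10 and 2.2.1 in the submitters' processing notes) on GRCm38, and deposited 1 table without counts. The deposited values were read as FPKM, a unit the table does not name. FPKM are relative to the library total, so a rise of abundant genes lowers the values of others, and the depth in fragments is unknown.

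Values were transformed to log2(FPKM + 1) and fitted with limma 3.58.1 in R 4.3.3 (moderated statistics with an intensity trend) on the libraries of each comparison, for genes with at least 1 FPKM in at least 3 of them. The methods name DESeq2, which needs counts and was not run. Calls required a Benjamini-Hochberg adjusted p under 0.05 over all genes tested and, for pairs of groups, 1.3-fold. Intervals are 95%. Alternatives were a pseudocount of 0.1, no filter, trimmed-mean scaling, a joint fit on all 24 libraries, the replicate number as a block, no minimum fold change, and leaving out each library. The fit was tested on simulated data.

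The members and gene lists were chosen with earlier results of these data known. The rule for named genes took the 10 members, *H19*, any locus neighbour, any listed gene called in a siH19 comparison, and the 2 genes closest to each member. *Zfp57* was added after its values were seen. 0 columns were left out. Groups were taken from the labels. Replicate libraries shared at most 0.0055% of their values above 0. Replicate numbers did not pair the samples (r of deviations from the group means -0.11 to 0.062). Coordinates were checked against GENCODE, where 49109 rows were found, and promoter windows are from RefSeq. Python 3.11.15, pandas 2.3.3 and matplotlib 3.10.9 were used.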

Additional observations from a re-analysis of the deposited data

Results flagged for a closer look

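The siRNA effect of some PEGs differed between depots or days by a test of the difference itself. At d3 the effect of siH19 was larger in BAT than in vWAT for *Nnat* (0.63 on the log2 scale), *Peg10* (0.76), *Sgce* (0.38) and *Impact* (0.38). In BAT it was higher at d3 than at d0 for *Nnat* (1.48), *Peg10* (0.62), *Sgce* (0.31) and *Impact* (0.27). Both tests use the same 6 BAT d3 libraries. At d3 in BAT, precursor and smooth muscle markers were higher and brown adipocyte markers lower with siH19, and their part in these differences was not tested.

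The change from d0 to d3 in siCtrl cells was lower in BAT than in vWAT for *Nnat* (-1.91), *Peg3* (-1.01), *Peg10* (-0.76) and *Sgce* (-1.59), and higher for *Impact* (0.25). In the same test 6 of 6 precursor markers (median -1.33) and 4 of 4 smooth muscle markers (-2.21) had the lower change in BAT and 7 of 7 adipocyte markers (1.26) the higher one, and their part was not tested. The depots were differentiated in different media, which cannot be told apart from the depot.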

How the results depend on the processing

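Over the alternatives, 1645 values of single PEGs were recomputed. Of these, 1572 kept their direction and their side of the threshold, 54 lost and 19 gained a call, and 0 called values changed direction. The count of PEGs called with siH19 in BAT d0, 1, became 0 without the filter, 2 in the joint fit on all 24 libraries and 0 with the replicate block, and lay between 0 and 2 when single libraries were left out. In BAT d3 the count of 3 lay between 1 and 3 without single libraries. Between depots at d3 it was 5 instead of 3 with no minimum fold change. For day by siRNA in BAT it was 1 instead of 4 under trimmed-mean scaling and 2 to 3 without single libraries. For the other 9 comparisons the count of PEGs called stayed within 1.5 times of the main count under every alternative run. Without single libraries these counts were 0 in both siH19 comparisons of vWAT, 5 to 6 (BAT siCtrl), 5 to 7 (BAT siH19), 4 to 6 (vWAT siCtrl) and 5 to 6 (vWAT siH19) for d3 against d0, 5 and 2 to 3 for BAT against vWAT at d0 and d3, 3 to 4 for depot by siRNA and 5 to 6 for depot by day. The causes were not tested, except that no filter adds genes over which p is adjusted and a left-out library leaves fewer samples.

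Same-numbered replicates did not deviate together, so the replicate block carries no design information here. Under the block the genes called over the whole table went from 245 to 2 in BAT d0, from 200 to 2 in vWAT d0 and from 4 to 0 in vWAT d3. In BAT d3 they went from 1071 to 859. Without the filter they were 35 in BAT d0 and 65 in vWAT d0. In the joint fit they were 526 in BAT d0, 378 in vWAT d0 and 15 in vWAT d3. With no minimum fold change they were 395 in BAT d0 and 2023 in BAT d3, and 6386 instead of 4096 between depots at d0. Leaving out single libraries gave 4 to 74 in BAT d0, 631 to 916 in BAT d3, 37 to 122 in vWAT d0, 1 to 5 in vWAT d3, 801 to 1091 for day by siRNA and 889 to 1432 for depot by siRNA. In vWAT d0 21.5% of called genes were higher, and 32.1% after trimmed-mean scaling. Depth per library is unknown.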
